A study of Mus musculus with 18 samples.

Results

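The comparison described here is between muscle cells of quadruple heterozygous mutant mice (DSMD-QKO, QKO) and wild-type mice (WT) after 1 day of differentiation in culture. Its 4 libraries, 2 of QKO and 2 of WT, were chosen by their sample labels out of 18 in the series, and 11890 genes with at least 1 RPKM in at least 2 of the 18 libraries were tested. RPKM is the number of reads per kilobase of transcript, scaled by the mapped reads of the library. Muscle stem cells (MuSCs) were taken from muscle of semi-cloned mice aged 4 months, with the strain given as C57BL/6. They were expanded in T cell conditional medium and then moved to differentiation medium. The libraries were labelled by their source as fiber, WT as wild type and QKO as DM1 mutant.

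A semi-cloned mouse grows from an oocyte injected with a haploid embryonic stem cell in the place of sperm. Per the methods of the study, the oocytes came from B6D2F1 females (C57BL/6J × DBA/2), and the haploid cells of every genotype, WT included, carry deletions of the H19-DMR and the IG-DMR, the control regions of imprinted clusters. QKO is heterozygous for mutations in Dmpk, Six5, Mbnl1 and Dmwd, and the Mbnl1 mutation removes exon 3. The triple mutant (DSM-TKO, TKO), used only for values set beside those of QKO, carries the first 3 mutations without that in Dmwd. No source used here says whether the libraries of a group came from separate animals or cultures, so p-values measure the spread between these libraries. Mutation, haploid cell line and the maternal alleles that an oocyte of mixed background passes on cannot be told apart in this design.

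DM1, myotonic dystrophy type 1, is caused by a CTG repeat expansion in DMPK, which encodes a kinase of muscle. The transcript with the expanded repeat binds MBNL1, a splicing regulator, and the neighbouring genes SIX5 and DMWD can be expressed less. MuSCs are marked by Pax7, the transcription factor of satellite cells. They turn on Myog as they leave the cell cycle, then fuse into myotubes that make embryonic myosin, sarcomeres, calcium stores and an excitable membrane.

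The cells of both genotypes expressed the genes of differentiating muscle. The summed level of 7 myotube markers, among them Acta1, Myh3 and Ckm, was 33015 and 28188 RPKM in WT and 27408 and 23255 RPKM in QKO. The summed level of Myod1, Myog and Des was 4074 and 4222 RPKM in WT and 3801 and 4800.1 RPKM in QKO. Of 7 markers of muscle stem cells, 6 were at 1 RPKM or more in both groups and Cd34 was below it. The 5 fibroblast markers summed to at most 1.98 RPKM in any of the 4 libraries, with Lum at 0, the 6 immune markers to at most 0.701, the 4 endothelial (Pecam1, Cdh5, Kdr and Tek) to at most 0.402, the 4 Schwann cell and neuronal to at most 0.888, the 3 adipocyte to at most 0.102, with Adipoq and Plin1 at 0, and the 4 epithelial to at most 0.163 RPKM. The 4 pericyte and smooth muscle markers summed to 2209 and 2248 RPKM in WT and 1559.6 and 1627 RPKM in QKO, nearly all of it Acta2, which differentiating muscle also expresses. Longer lists of the same cell types held genes that moved, and these are given beside the results they touch. Depth recovered from the deposited values was 75.3 and 53.6 M reads in WT and 59.2 and 43.2 M reads in QKO. Pearson correlations across the tested genes were 0.994 between the WT libraries, 0.991 between the QKO libraries and 0.971 to 0.976 between genotypes.

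The second WT library of day 2 stands apart from the first, and it enters the estimate of the spread for every gene. In the 20 named rises below, its level was a median of 2.28 above that of the first WT library on the log2 scale, against -0.01 over all genes. The cause was not tested. At day 1 the corresponding difference between the WT libraries was 0.03. Without that library, 321 genes were called higher and 317 lower at day 1, an alternative chosen after seeing the data, and the 328 calls described below were among them.

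Of the 4 mutated genes, none passed the test at day 1. The WT libraries held 330.0 and 395 RPKM of Dmpk and the QKO libraries 260.3 and 305 RPKM, a change of -0.36 ± 0.19 (log2, SE) with an adjusted p of 0.324. Every QKO library lay below both WT libraries. Dmwd, a WD repeat protein gene upstream of Dmpk, was at 52.5 and 51.7 RPKM in WT, 37.2 and 44.2 RPKM in QKO and 66.5 and 63.6 RPKM in TKO, with a change of -0.35 (adjusted p = 0.293) against WT. The values of QKO lay below those of both other genotypes. Six5, a homeobox gene, was near 1 RPKM throughout, at 0.71 and 0.882 in WT and 0.805 and 1.03 in QKO. The level of Mbnl1 was 10.3 and 11.1 RPKM in WT against 9.19 and 9.05 RPKM in QKO (-0.21, adjusted p = 0.757), and the loss of an exon cannot be seen in gene-level values. Of 16 tested genes around Dmpk, Dmpk included, none was called at day 1. By the same test at day 0, QKO was lower for Dmpk (-0.96, adjusted p = 0.00205), Dmwd (-1.11, adjusted p = 0.000517) and Six5 (-0.65, adjusted p = 0.00841). Mbnl1 was not called at day 0 (0.27, adjusted p = 0.51). The change of the difference from day 0 to day 1 was not called for any of the 4 mutated genes.

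Across all genes, 328 were called, 2.76% of those tested, by limma with a Benjamini-Hochberg adjusted p under 0.05. They were 170 genes higher in QKO (1.43% of genes tested) and 158 lower (1.33%), and the median change of all genes was -0.005 on the log2 scale. Of the 11890 genes, 5851 had changes above 0 and 6025 below 0. Among the 328, 103 rises and 69 falls were 2-fold or more on the scale of log2(RPKM + 1). For all 328 genes both QKO libraries lay on the same side of both WT libraries, which being called fixes in large part. Over all genes tested the groups did not overlap with QKO higher in 28.3% and with QKO lower in 31.4%. Among the 170 rises, 70 were of genes below 1 RPKM in both WT libraries, and 30 had a QKO mean of 20 RPKM or more. The falls included more abundant genes, with a WT mean of 20 RPKM or more in 63 of 158 and both QKO libraries below 1 RPKM in 24. With 2 libraries a group, an exact permutation test of a gene cannot pass 0.05, and the calls rest on the spread pooled across genes and groups.

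**Figure D1:**
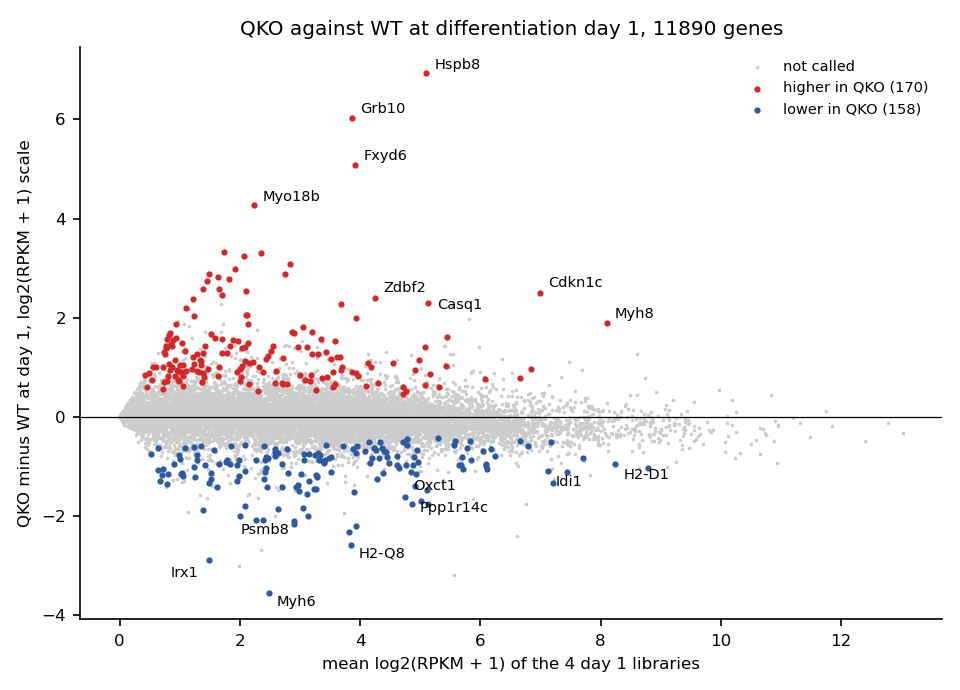
Change of each gene in QKO against WT at day 1 (vertical axis, log2(RPKM + 1) scale) by its mean level in the 4 libraries (horizontal axis, log2(RPKM + 1)), 1 point a gene, red for the 170 called higher, blue for the 158 called lower, grey for the rest. Hspb8 and Grb10 lie highest, at 6.94 and 6.04, and Myh6 lies lowest of the named genes, at -3.56.

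Leaving out a library ended many calls, while the direction of all 328 was the same in each of the 4 fits that left out 1 library. Of the 328 calls, 34 held without the first WT library, 38 without the second, 67 without the first QKO library and 54 without the second. The 21 that held in every one of the 4 fits were Aldh1a1, Dmd, Fry, Mamld1, Mcam, Tenm4, Scd3, Afap1l2, Dapk1 and AU018091, higher in QKO, and Psmb8, Psmb9, H2-Q6, H2-Q8, Oxct1, Ppp1r14c, Car2, Ccdc88b, Cpa1, Rps6ka4 and Vps36, lower in QKO.

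The genes of the myogenic programme itself showed no called change at day 1. None of 19 transcription factors of muscle passed the test, and their median change was -0.02. Myog, which commits myoblasts to differentiation, was at 2362 and 2377 RPKM in WT and 1988 and 2702 RPKM in QKO, so that the QKO values enclosed those of WT (-0.03, adjusted p = 0.97). Myod1, the determination factor, was at 579 and 788 RPKM in WT and 689.9 and 998 RPKM in QKO (0.30, adjusted p = 0.494). Myh3, embryonic myosin heavy chain, was at 4426 and 3506 RPKM in WT and 3697 and 3253 RPKM in QKO (-0.18, adjusted p = 0.809). The groups overlapped for both genes. Pax7 was at 3.75 and 6.03 RPKM in WT and 3.84 and 4.63 RPKM in QKO (-0.15, adjusted p = 0.842), also overlapping. Myf5, an early myogenic factor, was at 16.1 and 23.3 RPKM in WT and 7.4 and 8.38 RPKM in QKO, without overlap, and did not pass the test (-1.20 ± 0.44, adjusted p = 0.157). Mki67, a proliferation marker, was at 2.59 and 0.872 RPKM in WT and 1.35 and 0.687 RPKM in QKO (-0.38, adjusted p = 0.71).

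The largest rise was that of Hspb8, a small heat shock protein that works with Bag3 to clear damaged proteins from the Z-disc. It was at 2.09 and 2.11 RPKM in WT and 457 and 314 RPKM in QKO, 183-fold higher by the group means (6.94 ± 1.19, adjusted p = 0.01). Of the other 28 heat shock genes tested, none was called, and the median of the list was -0.14 (0.01 under quantile normalization). Grb10, an imprinted adaptor that dampens signalling from the insulin and IGF receptors, was at 0.758 and 0.821 RPKM in WT and 119 and 114 RPKM in QKO, 148-fold higher (6.04 ± 1.06, adjusted p = 0.0117). Igfbp4, a secreted IGF-binding protein, was at 0.519 and 0.731 RPKM in WT and 9.54 and 23.4 RPKM in QKO (3.31, adjusted p = 0.00535). Both WT libraries were low for each of these genes and no QKO value came near them. Igfbp3, another IGF-binding protein, went the other way, from 113 and 84.9 RPKM to 46.0 and 47.8 RPKM (-1.05, adjusted p = 0.0332). The 21 genes of the IGF axis thus held 2 rises and 1 fall. Igf2, its growth factor, lies in the H19 cluster and was at 815 and 851 RPKM in WT and 1129 and 1300.1 RPKM in QKO (0.54, adjusted p = 0.291).

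**Figure D2:**
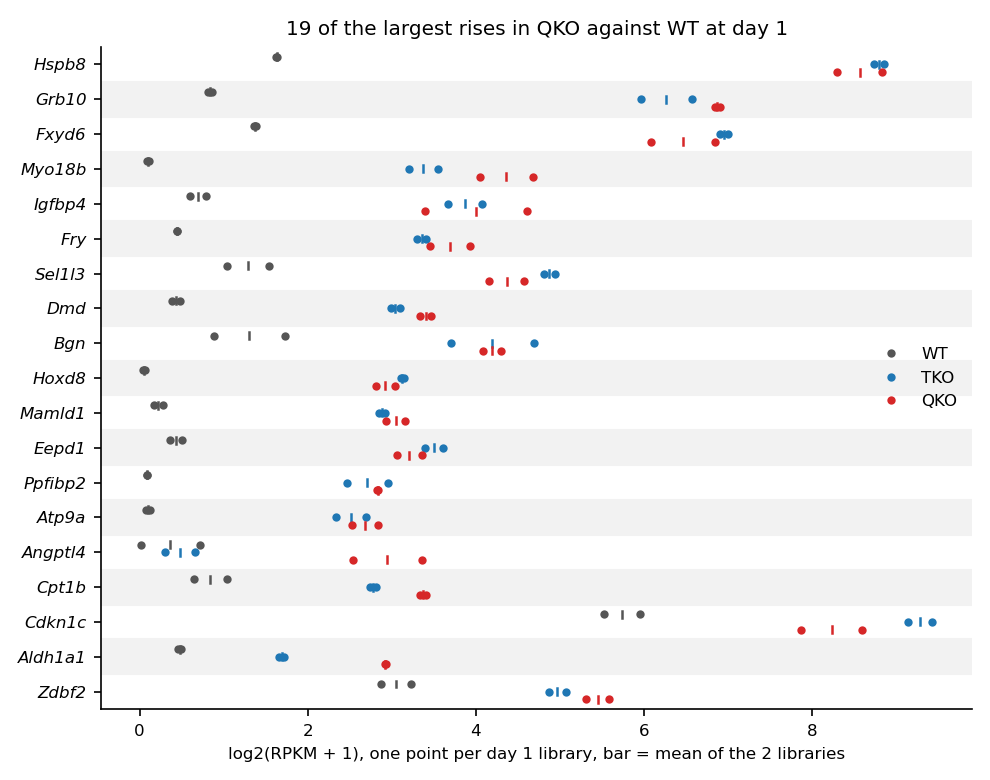
Level of 19 of the 20 named rises in each day 1 library (horizontal axis, log2(RPKM + 1), 1 row a gene), with 1 point a library, a bar at the mean of the 2 libraries, and WT in grey, TKO in blue and QKO in red. All QKO points lie to the right of the WT points, as the rule for naming these genes requires.

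Several rises were of genes for the muscle membrane and its excitability. Fxyd6, a regulatory subunit of the sodium pump, was at 1.56 and 1.62 RPKM in WT and 114 and 66.7 RPKM in QKO (5.09 ± 0.79, adjusted p = 0.00649). Of 17 genes of muscle excitability 5 were called higher (29.4%, against 1.43% of all genes) and none lower. Changes were above 0 in 16, against 5851 of all 11890 genes, and the median change was 0.84. Among the others called, Scn4a was at 9.61 and 7.07 RPKM in WT and 20.3 and 14.0 RPKM in QKO. It encodes the sodium channel of adult muscle. Kcnn3, a calcium-activated potassium channel, was at 5.69 and 3.27 RPKM in WT and 13.9 and 12.4 RPKM in QKO (1.41, adjusted p = 0.00568). Abcc9, the regulatory subunit of an ATP-sensitive potassium channel, was at 11.7 and 12 RPKM in WT and 27.6 and 22 RPKM in QKO (0.99, adjusted p = 0.0251). Clcn1, the chloride channel whose mis-splicing is linked to myotonia in DM1, was below 1 RPKM in all 4 libraries and was not called. Of the 5 calls, 4 ended without the first WT library, 5 without the second, 5 without the first QKO library and 2 without the second.

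The dystrophin gene Dmd, which links the cytoskeleton to the membrane, was at 0.398 and 0.301 RPKM in WT and 10.1 and 9.09 RPKM in QKO, 27.5-fold higher (2.97 ± 0.41, adjusted p = 0.00346). This call held in each fit that left out a library. Sgcd, δ-sarcoglycan of the same complex, was at 0.0373 and 0.0787 RPKM in WT and 2.58 and 1.14 RPKM in QKO (1.39, adjusted p = 0.0429). These were the 2 calls among 23 genes of the dystrophin-glycoprotein complex, whose median change was 0.21. Musk, the receptor kinase that organizes the neuromuscular junction, was the only call among 18 genes of that structure, at 26.7 and 24.3 RPKM in WT and 50.8 and 43.3 RPKM in QKO (0.85, adjusted p = 0.0472).

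Of 31 genes of excitation-contraction coupling, 3 were called higher, all genes of the calcium store. Casq1, the calcium-binding protein of the sarcoplasmic reticulum in fast fibers, was at 17.2 and 12.8 RPKM in WT and 74.7 and 79.3 RPKM in QKO, 5.14-fold higher (2.30, adjusted p = 0.0447). Ryr1, the calcium release channel of skeletal muscle, was at 73.7 and 88.8 RPKM in WT and 159.8 and 157 RPKM in QKO (0.96 ± 0.18, adjusted p = 0.0137). Ryr3, a relative found in developing muscle, was at 0.269 and 0.316 RPKM in WT and 1.82 and 1.42 RPKM in QKO. The groups did not overlap in any of the 3 genes, which being called fixes in large part, and the list as a whole had a median of 0.09.

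The myosin genes changed in opposite directions. Myh8, perinatal myosin heavy chain, was at 179 and 111 RPKM in WT and 562 and 498 RPKM in QKO (1.90 ± 0.40, adjusted p = 0.0253). Myo18b, an unconventional myosin of the sarcomere, rose from 0.0671 and 0.0809 RPKM to 24.6 and 15.6 RPKM (4.26, adjusted p = 0.0251). Myh6, α-cardiac myosin, was the largest named fall, from 27.2 and 12 RPKM in WT to 0.978 and 0.338 RPKM in QKO (-3.56 ± 0.79, adjusted p = 0.0318). Its neighbour Myh7, the slow myosin, was at 227 and 88.2 RPKM in WT and 9.41 and 22.7 RPKM in QKO and did not pass the test (-3.18 ± 1.08, adjusted p = 0.129). Reads of these 2 near-identical genes could have been split between them. Myl2, the regulatory light chain of slow and cardiac muscle, fell from 2.63 and 1.5 RPKM to 0.587 and 0.154 RPKM (-1.16, adjusted p = 0.0457). Of the 26 thick filament genes 2 were called higher and 2 lower with a median of -0.08 (0.07 under quantile normalization), and of 22 thin filament genes none was called. The thin filament median was -0.18, and 0.20 under quantile normalization, so its direction depended on the scaling. Acta1, skeletal α-actin, was at 10233 and 8574 RPKM in WT and 7382 and 7489 RPKM in QKO (-0.33, adjusted p = 0.577).

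Genes of cell surface and fusion were higher in a few cases. Of 17 myoblast fusion genes 3 were called higher. Mcam, an adhesion molecule, was at 2.75 and 2.52 RPKM in WT and 8.29 and 6.66 RPKM in QKO (1.22, adjusted p = 0.00336) and held in every fit that left out a library. Itga9, an integrin, was at 0.895 and 1.09 RPKM against 3.27 and 2.54 RPKM, and Myof, the membrane repair protein myoferlin, at 49.0 and 53.5 RPKM against 88.2 and 86.2 RPKM. The list's median was -0.02, close to that of all genes. Of 23 genes of muscle stem cells, Tenm4 (0.0736 and 0.0981 RPKM in WT, 1.94 and 1.32 RPKM in QKO) and the syndecan gene Sdc4 (11.1 and 10.9 RPKM, 23.4 and 25.4 RPKM) were called higher. Of 10 tested markers of pericytes and smooth muscle 3 were called higher (30.0%, against 1.43% of all genes), with a median of -0.04 over the list. They were Cspg4 and also Mcam and Abcc9, described above as genes of fusion and excitability. Cspg4, also known as NG2, was at 0.0789 and 0.0855 RPKM in WT and 1.94 and 2.07 RPKM in QKO (1.47, adjusted p = 0.039), while Rgs5 and Myh11 of the same marker list were below 1 RPKM in all 4 libraries. Eng, the endothelial marker endoglin and a co-receptor for TGF-β, was at 0.709 and 0.395 RPKM in WT and 2.44 and 2.64 RPKM in QKO (1.2, adjusted p = 0.0174), and Egfl7, the other tested gene of the longer endothelial list, was not called. The part of such cells in these rises was not tested. In bulk RNA, more cells of a type and more RNA per cell cannot be told apart.

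The splicing side of DM1 was seen here only as gene levels. Of 25 splicing regulators, Rbm38, which also stabilizes messages in differentiating muscle, was called, at 78.4 and 73.6 RPKM in WT and 131 and 132 RPKM in QKO (0.78, adjusted p = 0.0345). Of 29 tested genes known as hosts of mis-spliced exons in DM1, 3 were called higher, Dmd and Ryr1 among them, with a median over the list of 0.23.

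Imprinted genes were among the largest rises. Of 31 tested, 4 were called higher (12.9%, against 1.43% of all genes) and none lower, and the median of the list was -0.07. They were Grb10, described above, Cdkn1c, Ndn and Nnat. Cdkn1c encodes p57, an inhibitor of cyclin-dependent kinases that acts as myoblasts leave the cell cycle. It was at 45.1 and 60.8 RPKM in WT, 387 and 234 RPKM in QKO and 691 and 564 RPKM in TKO (QKO against WT 2.50 ± 0.40, adjusted p = 0.00717). Ndn, the growth suppressor necdin, was at 0.127 and 0.212 RPKM in WT and 3.56 and 3.98 RPKM in QKO. Nnat, a small membrane protein gene, was at 0.625 and 0.769 RPKM in WT and 2.47 and 3.01 RPKM in QKO but 0.608 and 0.985 RPKM in TKO. Zdbf2, an imprinted zinc finger gene, also rose, from 6.32 and 8.37 RPKM to 47.1 and 38.7 RPKM (2.40, adjusted p = 0.012). Which parental copy was expressed was not measured. Leaving out a library ended 4 of the 4 calls of the list without the first WT library or the first QKO library and 3 of 4 without either of the others.

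Homeobox genes that mark position along the body differed as well. Of 13 tested genes of the Hox C and D clusters, 4 were called higher (30.8%) and 2 lower (15.4%), against 1.43% and 1.33% of all genes. Hoxd8 was at 0.0243 and 0.0427 RPKM in WT and 6.02 and 7.22 RPKM in QKO (2.88, adjusted p = 0.0275). Hoxd4 and Hoxd3 were listed at 0 in both WT libraries and were at 3.0 and 4.31 RPKM and 2.07 and 3.33 RPKM in QKO, and these neighbours may share reads. Hoxc13 rose from 0.0432 and 0.0911 RPKM to 1.47 and 1.81 RPKM. In the other direction, Hoxc8 was at 5.22 and 5.24 RPKM in WT and 1.59 and 2.27 RPKM in QKO (-1.10, adjusted p = 0.028), and Hoxc9 at 6.88 and 8.44 RPKM against 4.3 and 4.71 RPKM (-0.65, adjusted p = 0.0432). The median of the Hox C and D genes was 0.56, and -0.36 among those with a mean of at least 5 RPKM. None of 17 genes of the Hox A and B clusters was called, and all 6 calls ended in each fit that left out a library.

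Of 20 tested genes of the Irx, Pitx and Tbx families and related factors that pattern the embryo, 4 were called lower and none higher, with a median of -0.21, which was 0.01 with limma voom on recovered reads. Irx1 was at 7.14 and 6.09 RPKM in WT and 0.0486 and 0.0 RPKM in QKO (-2.89, adjusted p = 0.0125). Irx5 was at 15.7 and 17.5 RPKM in WT and 2.4 and 4.72 RPKM in QKO, 4.66-fold lower (-1.99, adjusted p = 0.00678). Tbx18, a gene of limb and heart mesenchyme, was at 15.7 and 12.1 RPKM in WT and 4.24 and 3.87 RPKM in QKO, and Shox2 at 1.24 and 1.3 RPKM in WT and 0.0617 and 0.0986 RPKM in QKO. T-box genes did not share a direction. Tbx1 was at 0.404 and 1.27 RPKM in WT and 3.58 and 6.5 RPKM in QKO (1.72, adjusted p = 0.0581) and Tbx4 at 0.437 and 0.41 RPKM against 1.92 and 1.98 RPKM (1.05, adjusted p = 0.0741), without overlap and without a call. The regional origin of the muscle in each library was not given in the sources used here.

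The other named rises had a variety of roles. Aldh1a1, an enzyme that makes retinoic acid, gave the smallest p-value, at 0.412 and 0.372 RPKM in WT, 6.64 and 6.56 RPKM in QKO and 2.3 and 2.17 RPKM in TKO (QKO against WT 2.45 ± 0.12, adjusted p = 1.31e-07). The values of the 3 genotypes did not overlap. Fry, a scaffold of NDR kinases, was at 0.358 and 0.366 RPKM in WT and 14.3 and 10 RPKM in QKO, and Mamld1, a mastermind-like protein gene, at 0.122 and 0.214 RPKM and 7.93 and 6.66 RPKM. All 3 calls held whichever of the 4 libraries was left out. Cpt1b, the muscle enzyme that admits fatty acids to mitochondria, was at 0.564 and 1.05 RPKM in WT and 9.13 and 9.58 RPKM in QKO (2.53, adjusted p = 0.0122). Angptl4, an inhibitor of lipoprotein lipase, was at 0.646 and 0.0097 RPKM in WT, 4.79 and 9.23 RPKM in QKO and 0.231 and 0.58 RPKM in TKO, so that QKO alone was above 1 RPKM. The remaining named rises, as far as they are given here, had changes between 2.58 and 3.08 and were Sel1l3, the matrix proteoglycan gene Bgn, Eepd1, the liprin gene Ppfibp2 and the flippase gene Atp9a. Of the 20 named rises, 4 held in every fit that left out a library, and 16, 14, 14 and 14 ended without the first and second WT and the first and second QKO library. On the log2 scale their changes stayed between 0.817 and 1.18 times the full value.

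A further group with falls was that of antigen presentation by MHC class I, in which cells show peptides cut by the proteasome and carried by the TAP transporter into the endoplasmic reticulum. In a list of 28 antigen presentation genes, 9 class I and processing genes were called lower. Promoters of 6 of these 9 hold a motif known in mouse for NF-κB or interferon-induced factors, a count that pools different motifs. The share of promoters with any of these motifs was not counted. The stretches of the 6 are shown because all of these genes lie on chromosome 17 and some share sequence. The sequences are those of RefSeq on GRCm38.p6, 5′ to 3′ on the strand of the gene, and the capitals mark the motif, which is GGGATTCCC in the class I genes, TTCNNNGAA in Psmb8 and GAAANNGAAA, on the opposite strand, in H2-T22. The windows lie at chr17:34000429-34000477 (minus strand), chr17:35262904-35262952, chr17:35424658-35424706, chr17:35439003-35439051, chr17:34198078-34198126 and chr17:36042904-36042953 (minus strand).
H2-K1: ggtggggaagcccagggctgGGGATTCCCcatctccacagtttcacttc
H2-D1: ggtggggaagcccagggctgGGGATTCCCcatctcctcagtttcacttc
H2-Q6: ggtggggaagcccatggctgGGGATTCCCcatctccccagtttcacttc
H2-Q7: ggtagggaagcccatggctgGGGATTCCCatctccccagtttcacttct
Psmb8: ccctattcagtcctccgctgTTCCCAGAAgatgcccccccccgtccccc
H2-T22: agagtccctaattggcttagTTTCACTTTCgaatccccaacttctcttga

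The windows of H2-K1 and H2-D1 are identical at 48 of 49 positions, and each is identical to that of H2-Q6 at 47. In the 250 bases before the start, GGGATTCCC on either strand was present in 4 of the 6 class I genes of the list called lower and in 0.301% of 32851 promoters. A gene was counted if any of its starts matched, whereas the share is of single promoters. H2-Q8 and H2-Q2, class I genes outside the list that were also called lower, were not among the 6. None of the 3 processing genes called held GGGATTCCC. TTCNNNGAA was present in 0 of the 6 class I genes and 1 of the 3 processing genes, and in 7.02% of those promoters. GAAANNGAAA was present in 1 of the 6 and 0 of the 3, and in 2.98% of those promoters. The match is a description of these letters, and variants of a motif that depart from them were not searched. Tap1 and Psmb9 are read in opposite directions from a shared interval of 225 bases, chr17:34187331-34187555, shown because both genes fell. Its CCAAT box and its GC box (GGGCGG, here on the opposite strand) are in capitals, and they were present in 33.8% and 32.7% of promoters.
Tap1 and Psmb9: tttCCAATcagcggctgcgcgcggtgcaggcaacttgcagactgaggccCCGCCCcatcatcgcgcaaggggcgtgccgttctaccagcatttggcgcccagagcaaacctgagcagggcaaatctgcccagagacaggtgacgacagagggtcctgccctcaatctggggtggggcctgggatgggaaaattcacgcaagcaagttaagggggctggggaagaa

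Of 28 genes of antigen presentation, 9 were called lower (32.1%, against 1.33% of all genes) and none higher. Changes were below 0 in 24, against 6025 of all 11890 genes, and the median change was -0.44. The classical class I genes were abundant and about halved. H2-K1 was at 615 and 645 RPKM in WT and 253 and 372 RPKM in QKO (-1.04 ± 0.22, adjusted p = 0.0251), and H2-D1 at 408 and 432 RPKM against 179.7 and 259 RPKM (-0.96, adjusted p = 0.0474). B2m, the light chain of class I molecules, had the same order of values, 1527 and 1695 RPKM in WT and 831 and 973 RPKM in QKO, and just missed the threshold (-0.84, adjusted p = 0.0502). The nonclassical genes of the list had changes between -2.33 and -0.29, and H2-M3 (-0.45, adjusted p = 0.249) and H2-T23 (-0.29, adjusted p = 0.657) were not called. H2-Q6 was at 30.5 and 30.7 RPKM in WT and 3.83 and 7.23 RPKM in QKO (-2.33, adjusted p = 0.000382). H2-Q8, outside the list, was at 33.7 and 34.3 RPKM against 3.62 and 6.43 RPKM (-2.58, adjusted p = 0.000122). H2-Q7 was at 62.8 and 62.8 RPKM in WT and 11.9 and 26.8 RPKM in QKO, and H2-Q9 at 58.7 and 55.3 RPKM against 11.9 and 23.6 RPKM. These copies are similar in sequence and may share reads, so that their single values are uncertain. H2-Q4 was at 45.8 and 50.1 RPKM in WT and 12.4 and 25.0 RPKM in QKO. H2-T22, at 28.3 and 29.5 RPKM and 11.1 and 12 RPKM, completes the class I calls of the list. H2-Q2, outside the list, was also called lower than in WT, and its values are given below beside those of TKO.

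The genes that make and carry the peptides fell in part. Psmb8, a catalytic subunit of the immunoproteasome, was at 12.5 and 17.6 RPKM in WT and 2.09 and 3.08 RPKM in QKO, 5.84-fold lower (-2.16 ± 0.22, adjusted p = 0.000284). Psmb9, the second such subunit, was at 13.9 and 15.0 RPKM in WT and 2.28 and 2.9 RPKM in QKO (-2.11, adjusted p = 0.000887). Tap1, a subunit of the peptide transporter, was at 10.2 and 13.4 RPKM in WT and 2.74 and 5.31 RPKM in QKO (-1.39, adjusted p = 0.0154). Their partners did not pass the test. Psmb10, the remaining immunoproteasome subunit, was at 5.33 and 8.09 RPKM in WT and 5.35 and 7.39 RPKM in QKO (-0.06, adjusted p = 0.935). Tap2 was at 10.5 and 16.9 RPKM against 7.97 and 10.2 RPKM (-0.52, adjusted p = 0.174), and the groups did not overlap. Of the 9 calls of the list, 5, 6, 5 and 1 ended without the first and second WT and the first and second QKO library, and those of H2-Q6, Psmb8 and Psmb9 held in every fit.

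Of 42 antiviral interferon-stimulated genes 2 were called lower (4.76%, against 1.33% of all genes) and none higher. Changes were below 0 in 35, against 6025 of all 11890 genes. The median of the list was -0.16, and -0.48 with limma voom on recovered reads. The 2 called were Ifi204, at 10.9 and 8.98 RPKM in WT and 6.2 and 4.77 RPKM in QKO, and Samd9l, at 0.818 and 1.06 RPKM and 0.211 and 0.307 RPKM. None of 17 interferon-induced GTPases was called (median -0.20, and -0.42 with a pseudocount of 0.1). Il33, an alarmin cytokine, was at 9.88 and 8.08 RPKM in WT and 1.34 and 1.38 RPKM in QKO (-2.07, adjusted p = 0.0457) and was the only call among 24 chemokines and cytokines. This call ended in every fit that left out a library, with either other pseudocount, with a mean of at least 5 RPKM, without a filter, and with quantile normalization or voom. Lgals9, galectin-9, was at 28.0 and 20.7 RPKM in WT and 8.7 and 6.9 RPKM in QKO (-1.52, adjusted p = 0.0251). Arhgdib, a GDP dissociation inhibitor best known from blood cells, was at 32.1 and 31.3 RPKM in WT and 8.66 and 4.19 RPKM in QKO (-2.21, adjusted p = 0.0166). The 6 immune markers given above summed to at most 0.701 RPKM, but of the 5 tested genes of a longer immune list Laptm5 was at 3.59 and 1.32 RPKM in WT and 0.418 and 0.258 RPKM in QKO (-1.29, adjusted p = 0.0728) and Itgam at 4.5 and 2.55 RPKM against 2.38 and 1.72 RPKM (-0.54, adjusted p = 0.243). The summed level of these 5 was 8.58 and 4.74 RPKM in WT and 4.33 and 3.12 RPKM in QKO, none was called, and their part in the fall of Arhgdib was not tested.

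**Figure D3:**
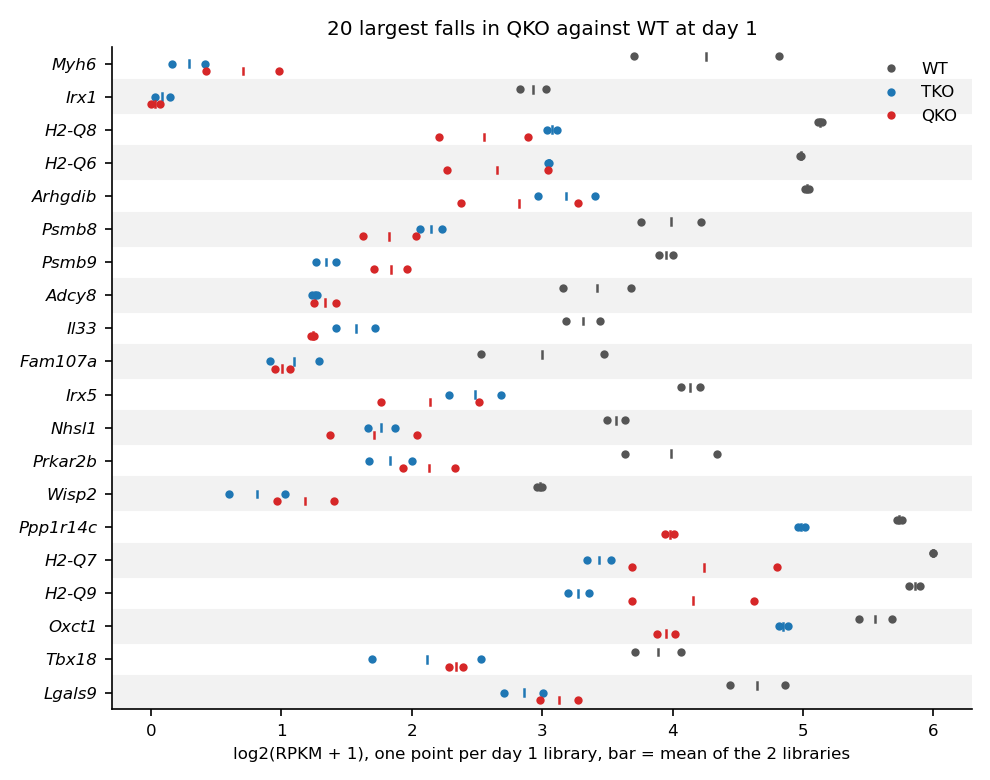
Level of the 20 named falls in each day 1 library (horizontal axis, log2(RPKM + 1), 1 row a gene), with 1 point a library, a bar at the mean of the 2 libraries, and WT in grey, TKO in blue and QKO in red. All QKO points lie to the left of the WT points, as the rule requires, and TKO lies between WT and QKO for Ppp1r14c, at 30.1 and 31.3 RPKM, and Oxct1, at 28.5 and 27.1 RPKM.

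Genes of cholesterol synthesis were lower nearly throughout the pathway. Of 24 tested genes 7 were called lower (29.2%, against 1.33% of all genes) and none higher, and the median was -0.78. Changes were below 0 in 23, against 6025 of all 11890 genes. In 20 of these the groups did not overlap, against 31.4% of all genes lower without overlap. Idi1, an enzyme of the isoprenoid steps, was at 205 and 199 RPKM in WT and 121 and 73.2 RPKM in QKO (-1.10 ± 0.24, adjusted p = 0.0309). Among the sterol steps, Dhcr7, which makes cholesterol from its last precursor, was at 44.1 and 37.3 RPKM in WT and 21.6 and 18.7 RPKM in QKO (-0.98 ± 0.14, adjusted p = 0.0041). Sc5d was at 34.4 and 32.4 RPKM against 21.4 and 12.7 RPKM, Lss, which closes the sterol rings, at 13.6 and 13.7 RPKM against 7.93 and 5.54 RPKM, and Cyp51 and Tm7sf2 were also called. Insig1, the sterol sensor that holds back SREBP, was at 71.3 and 69.5 RPKM in WT and 45.2 and 27.8 RPKM in QKO (-0.97, adjusted p = 0.0382). The transcription factor gene Srebf2 was at 78.2 and 86.9 RPKM in WT and 76.3 and 83.3 RPKM in QKO, where the groups overlapped, and was not called (-0.05, adjusted p = 0.931). In most of these genes the second QKO library was the lower. Without it the median was -0.55, against -1.06 without the first QKO library, and of the 7 calls 7, 6, 1 and 6 ended without the first and second WT and the first and second QKO library. All 7 called genes hold a CCAAT box and a GC box in the 250 bases before a start, against 33.8% and 32.7% of the promoters counted. A gene was counted if any of its starts matched, whereas these shares are of single promoters. The genes of the list that were not called were not searched, so nothing here ties the motifs to the calls.

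Fatty acid synthesis had 5 falls and 1 rise among 19 genes, with a median of -0.35. Fads2 and Fads1, desaturases of polyunsaturated fatty acids, were at 12.7 and 10.4 RPKM and 6.32 and 6.78 RPKM in WT and at 4.61 and 2.87 RPKM and 3.63 and 3.97 RPKM in QKO. Acss2, Me1 and the regulator Srebf1 were also lower, Srebf1 at 29.0 and 36.1 RPKM in WT and 22.7 and 20.7 RPKM in QKO (-0.56, adjusted p = 0.0348). Of the stearoyl-CoA desaturases, Scd3 rose from 0.0532 and 0.0267 RPKM to 2.32 and 1.39 RPKM (1.44, adjusted p = 0.00409). The far more abundant Scd2 was at 336 and 342 RPKM in WT and 193 and 115 RPKM in QKO and was not called (-1.18, adjusted p = 0.094).

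A few genes of energy metabolism were called. Oxct1, a mitochondrial enzyme of ketone body breakdown, was at 50.3 and 42.1 RPKM in WT and 15.2 and 13.7 RPKM in QKO, 3.20-fold lower (-1.61 ± 0.14, adjusted p = 0.000122), and held in every fit that left out a library. Of 31 genes of muscle energy metabolism 3 were called lower and 1 higher, with a median of -0.16. Hk2, the hexokinase of muscle, was at 8.7 and 10 RPKM in WT and 4.14 and 3.36 RPKM in QKO. The glycogen genes Ugp2 (105 and 85.3 RPKM in WT, 56.2 and 41.4 RPKM in QKO) and Gyg (82.5 and 97.5 RPKM, 57.8 and 55.2 RPKM) also fell. Slc16a3, the lactate exporter, rose from 4.94 and 7.45 RPKM to 24.2 and 15.5 RPKM (1.53, adjusted p = 0.0169). Most genes of glycolysis were not called, Gapdh at -0.12 (adjusted p = 0.812) and Pfkm at 0.05 (adjusted p = 0.93) among them. None of 63 genes of oxidative phosphorylation was called, yet all 63 had changes below 0, against 6025 of all 11890 genes. The median of the 63 was -0.30 and the lowest change -0.91. For example, Atp5a1 was at 610.2 and 637 RPKM in WT and 547 and 495 RPKM in QKO (-0.26, adjusted p = 0.311). Their median was -0.15 under quantile normalization, the smallest of the scalings tried.

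Signalling genes among the largest falls included Ppp1r14c, an inhibitor of protein phosphatase 1, at 53.0 and 51.7 RPKM in WT and 15.1 and 14.4 RPKM in QKO (-1.76 ± 0.16, adjusted p = 0.00013). Its libraries agreed closely within each genotype. Adcy8, a calcium-stimulated adenylyl cyclase, was at 11.8 and 7.93 RPKM in WT and 1.68 and 1.38 RPKM in QKO, and Prkar2b, a regulatory subunit of the cAMP-dependent kinase, at 11.4 and 19.2 RPKM against 2.82 and 4.03 RPKM. Fam107a, an actin-binding stress gene, Nhsl1 and Wisp2, a matricellular protein gene, fell by 2.0, 1.86 and 1.80 on the log2 scale. The call of Fam107a ended without a filter on low values and that of Wisp2 with a pseudocount of 0.1. Of the 20 named falls 6 held in every fit that left out a library, and 13, 13, 11 and 10 ended without the first and second WT and the first and second QKO library.

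Genes of proliferation had changes mostly below 0 without a call. Of 40 genes of mitosis none was called, and 37 had changes below 0, against 6025 of all 11890 genes. In 29 of the 40 QKO was lower without overlap, against 31.4% of all genes. The median of the 40 was -0.49, between -0.87 with a pseudocount of 0.1 and -0.22 without the first WT library. Up to 8 were called lower in the alternatives. None of 37 genes of S phase was called (30 below 0, median -0.19, and -0.43 with voom), and none of 70 ribosomal protein genes (median -0.18, and 0.00 under quantile normalization). Rrm2, a subunit of ribonucleotide reductase, was at 49.2 and 36.4 RPKM in WT and 26.5 and 21.3 RPKM in QKO (-0.81, adjusted p = 0.0622). Of 25 genes of cell cycle exit, Cdkn1c rose and Cdkn2b, the inhibitor p15, fell from 26.5 and 29.5 RPKM to 17 and 14.2 RPKM. Of 20 collagen chains, Col6a1, at 6.77 and 7.68 RPKM in WT and 2.0 and 2.89 RPKM in QKO, and Col6a2, at 1.72 and 1.63 RPKM and 0.509 and 0.468 RPKM, were called lower. Both encode chains of collagen VI, which anchors muscle cells to their matrix. Of 24 collagen-modifying enzymes Adamts14, Mmp2 and Plod1 were higher, and of 21 genes of BMP signalling only Nog, a secreted BMP antagonist, at 1.87 and 1.4 RPKM in WT and 5.45 and 7.51 RPKM in QKO.

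**Figure D4:**
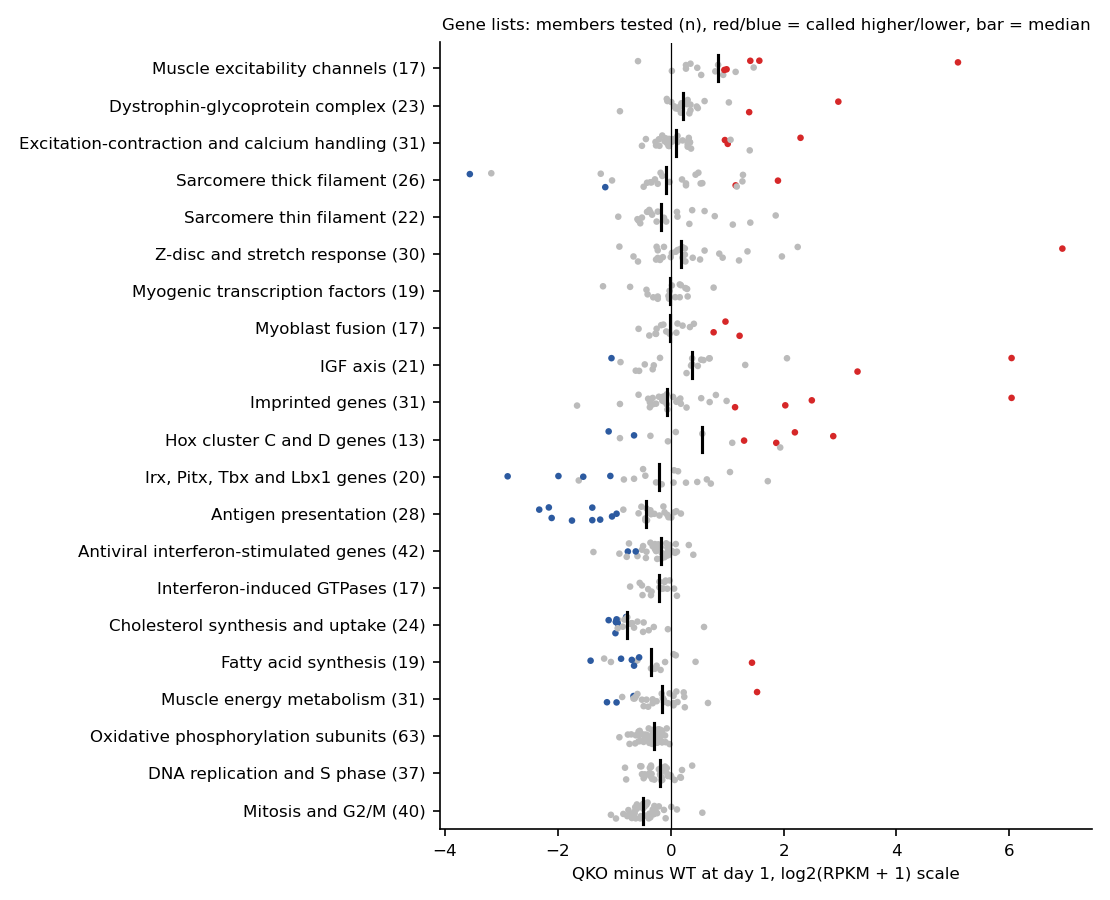
Change in QKO against WT at day 1 (horizontal axis, log2(RPKM + 1) scale) of the tested genes of 21 lists, 1 point a gene, with the number tested in brackets, called genes in red or blue and a black bar at the median. The medians of the excitability channels (0.84), the Hox C and D clusters (0.56), cholesterol synthesis (-0.78), mitosis (-0.49) and antigen presentation (-0.44) lie farthest from the median of all genes (-0.005) among these lists.

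To see how far the day 1 differences belong to that day, the same genes were read in the libraries of days 0 and 2. The calls of day 1 did not compare these libraries, but their spread entered the test. A gene whose libraries agree closely on those days is more easily called and also overlaps less there. The shares below are therefore in part fixed by being called. Of the 170 genes higher at day 1, both QKO libraries lay above both WT libraries in 135 (79.4%) at day 0, against 28.2% of all genes, and in 94 (55.3%) at day 2, against 13.8%. Of the 158 genes lower at day 1, QKO lay below WT in 92 (58.2%) at day 0, against 29.6% of all genes, and in 113 (71.5%) at day 2, against 32.4%. The opposite order, with no overlap, was seen for 11 of the 170 and 27 of the 158 at day 0. Day 2 held 1 such gene of each set. No source used here says whether libraries of different days came from the same culture.

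At day 2 the WT libraries differed from each other in many of the rises. Hspb8 was at 4.44 RPKM in the first WT library of day 2 and 339 RPKM in the second, against 252 and 231 RPKM in QKO. Grb10 was at 1.44 and 94.4 RPKM in WT and 89.8 and 99.3 RPKM in QKO, and Dmd at 3.92 and 18.1 RPKM against 21.5 and 19.3 RPKM. For 19 of the 20 named rises the second WT library lay nearer to the QKO mean of day 2 than to the first WT library, against 49.9% of all genes. Among the named falls it was so for 12 of 20. At day 1 the WT libraries were within 0.1 RPKM of each other for Hspb8, Grb10 and Dmd.

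The difference between QKO and WT at day 1 was tested against that at day 0, and 1304 genes were called (11.0% of genes tested). Of the 20 named rises 5 were among them, and of the 20 named falls 11. All 16 shifted from day 0 in the direction of their day 1 difference, as did 878 of the 1304, and the choice of named genes by that difference largely fixes it. Cdkn1c was at 6.16 and 4.5 RPKM in WT and 5.54 and 4.7 RPKM in QKO at day 0, where the groups overlapped, and 54.1 and 116 RPKM and 113 and 73.7 RPKM at day 2, where they overlapped again. Aldh1a1 was below 0.2 RPKM in all 4 libraries of day 0, and at 0.339 and 0.0982 RPKM in WT and 0.803 and 0.921 RPKM in QKO at day 2. Aldh1a1 was also the only gene called in the test of day 2 against day 1 (-1.83, adjusted p = 0.000426), where 631 genes had an unadjusted p under 0.05.

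Genes of commitment lay apart at day 0 and overlapped at day 1. Myog was at 214 and 182 RPKM in WT and 775 and 566 RPKM in QKO at day 0 (1.74, adjusted p = 0.000536). At day 1 the groups overlapped, as given above, and the change of the difference was -1.77 (adjusted p = 0.0127). Myh3 was at 178 and 84.5 RPKM in WT and 312 and 383 RPKM in QKO at day 0, and its difference changed by -1.67 (adjusted p = 0.0363). Hoxc10 went from 0.68 and 0.793 RPKM in WT and 23.5 and 24.3 RPKM in QKO at day 0 to 20.6 and 20.5 RPKM and 14.4 and 17.2 RPKM at day 1, a change of -4.20 (adjusted p = 4.87e-07). Of the immunoproteasome genes, Psmb8 was at 173 and 275 RPKM in WT and 89.7 and 78.4 RPKM in QKO at day 0 and at 2.06 and 1.7 RPKM and 0.824 and 0.72 RPKM at day 2, with QKO lower each day.

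**Figure D5:**
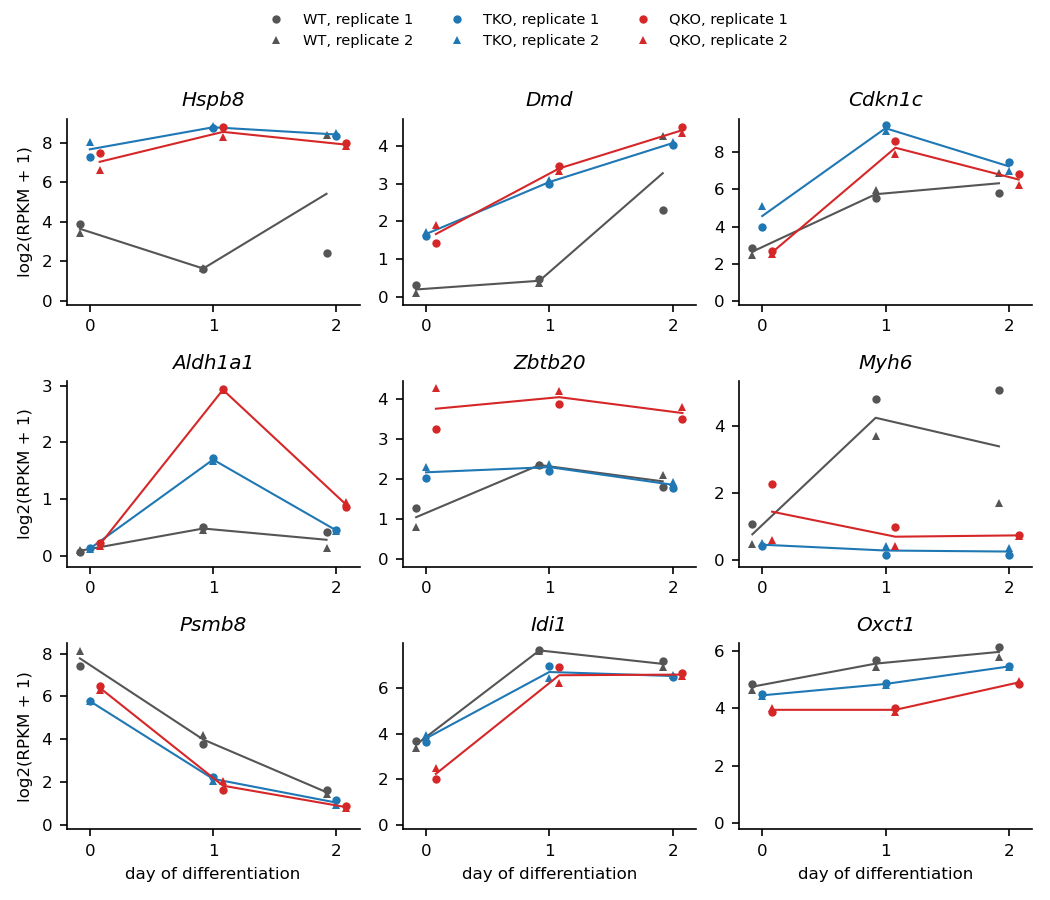
Levels of 9 genes over days 0, 1 and 2 of differentiation (horizontal axis, day; vertical axis, log2(RPKM + 1)) in WT (grey), TKO (blue) and QKO (red), with circles and triangles for the first and second library and lines through the group means. QKO and WT lie furthest apart at day 1 for Aldh1a1 and Cdkn1c, and the WT libraries of day 2 separate for Hspb8, at 4.44 and 339 RPKM.

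Many values of QKO at day 1 can be set beside those of the triple mutant. TKO was at 428 and 464 RPKM for Hspb8, 93.9 and 61.5 RPKM for Grb10, 119 and 127 RPKM for Fxyd6, 6.96 and 7.54 RPKM for Dmd, 7.22 and 7.64 RPKM for H2-Q8 and 3.7 and 3.17 RPKM for Psmb8. All of these lay on the side of QKO. In TKO against WT at day 1 the list medians were 0.81 for excitability, 0.56 for Hox C and D and -0.73 for cholesterol synthesis. They were -0.32 for mitosis and -0.59 for antigen presentation, against 0.015 over all genes. The comparisons of both mutants with WT share the WT libraries. In the direct test of QKO against TKO at day 1, 30 genes were called (0.252% of genes tested), 11 higher and 19 lower in QKO, and 1040 had an unadjusted p under 0.05. Of the 20 named rises 1 was among the 30 and of the 20 named falls 2, which does not show that the others are alike.

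Among those higher in QKO than in TKO were Aldh1a1 (1.23, adjusted p = 0.000195), Zbtb20, Cpt1a, Cd200, Scd3 and Ankrd2. Zbtb20, a transcriptional repressor, was at 4.14 and 4.07 RPKM in WT, 3.64 and 4.22 RPKM in TKO and 13.8 and 17.6 RPKM in QKO (QKO against TKO 1.76, adjusted p = 0.015). Only the QKO libraries were high. Cpt1a, the liver form of carnitine palmitoyltransferase, was at 7.11 and 9.32 RPKM in WT, 5.52 and 7.56 RPKM in TKO and 15.3 and 19.6 RPKM in QKO. Cd200, a surface glycoprotein that restrains myeloid cells, was at 5.47 and 6.29 RPKM in WT, 4.24 and 4.41 RPKM in TKO and 15.4 and 16.7 RPKM in QKO. Ankrd2, a stretch-responsive ankyrin repeat gene, was at 137 and 88.5 RPKM in QKO and 11.2 and 10.4 RPKM in TKO (3.24, adjusted p = 0.0236), with WT between them at 34.8 and 21.5 RPKM.

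Among those lower in QKO than in TKO, Ppp1r14c (-1.01, adjusted p = 0.015) and Oxct1 (-0.90, adjusted p = 0.015) had TKO values between those of QKO and WT. Lbx1, a homeobox gene of migrating muscle precursors, was at 28.0 and 22.5 RPKM in QKO and 55.1 and 60.0 RPKM in TKO (-1.16, adjusted p = 0.00673), with WT at 30.7 and 29.7 RPKM near QKO. H2-Q2, an MHC class I gene, was at 0.0451 and 0.165 RPKM in QKO, 1.02 and 0.731 RPKM in WT and 3.48 and 4.35 RPKM in TKO (-2.15, adjusted p = 3.57e-06). H2-T3, H2-Bl, Gm6034 and Gm11127 were called in the same direction. The MHC is a region in which inbred strains differ, and the alleles of each mouse were not given in the sources used here. The count of 30 was 12 without the first and 9 without the second QKO library.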

How the data were processed

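RNA was extracted with TRIzol, made into libraries with a TruSeq kit and sequenced on an Illumina HiSeq X instrument. Per the labels and the study's methods, the authors aligned reads with HISAT2 2.0.5 to protein-coding genes of GRCm38.p5 and quantified them with StringTie (version not given in the sources used here). The authors deposited RPKM values of 18 libraries in a table of 22013 rows. Since RPKM rises in steps of whole reads, depth, gene length and read numbers could be recovered from it. Whole reads, to within 0.1 of a read, were found for 96.6% of 16548 rows, and a count model (limma voom) on them called 174 genes higher and 85 lower. Of recovered read numbers from 1 to 20, 64.6% were even, and the cause was not tested. The reads in the depths and the count model may therefore not all be independent. Where a symbol was repeated, 1 row, that of highest mean, was used, and 1401 rows were left out.

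Values were taken as log2(RPKM + 1), which understates the change of low genes. The filter was 1 RPKM in at least 2 libraries. limma 3.58.1 (R 4.3.3) fitted a mean for each of 9 groups, leaving 9 residual degrees of freedom, with moderated variances (trend and robust options on). Tests were two-sided, with Benjamini-Hochberg adjustment over the 11890 genes of a contrast and a threshold of 0.05. Each ± after a change is its standard error, and folds are ratios of group means of RPKM. Gene lists were described by counts and medians, with no set test. The comparison, members and lists were chosen with earlier results of these data known. The scripts were tested on simulated data.

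By the rule for naming, the text gives the 4 targeted genes, Pax7, Myf5, Myod1, Myog, Myh3 and Mki67. To these it adds the 20 largest rises and 20 largest falls that were called, reached a mean of 5 RPKM in the higher group and had no overlap between the libraries, clone and model names left out. It also gives up to 4 called members of a list in each direction, or 2 members as values where none passed, and the 5 largest changes each way of the differences between days. Not every gene the rule allows is printed, and some are withheld and not reported here. The other genes named were chosen after their values were seen, among them H2-D1, H2-K1, H2-Q4, H2-T22, B2m, Tap1, Tap2, Psmb10, Srebf1, Srebf2, Scd2, Lss, Igf2, Clcn1, Scn4a and the genes of QKO against TKO.

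Alternatives were pseudocounts of 0.1 and 0.5, a minimum of 5 for the mean RPKM, no filter, a filter on the 4 libraries, quantile, median-ratio and gene-length scaling (loess, span 0.5), moderation without the trend and robust options, fits of the day 1 libraries or of the 4 libraries alone, limma voom on the recovered reads, all rows of repeated symbols, an adjusted p under 0.01, the replicate number as a block, and leaving out each of the 4 libraries. Leaving out the second WT library of day 2 was added after the data were seen. Promoters were read from RefSeq (GRCm38.p6), 250 bases before each start. The promoters counted do not cover every chromosome. Splicing was not analysed. Python 3.11.15 was used for tables and plots, with pandas 2.3.3 and Matplotlib 3.10.9.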

Additional observations from a re-analysis of the deposited data

Results flagged for a closer look

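The difference between QKO and WT changed from day 0 to day 1 by an interaction test (limma, adjusted p under 0.05) in the following named genes, given as the log2 difference at day 1 less that at day 0. Among the named rises it was 2.54 for Cdkn1c, 2.34 for Aldh1a1, 2.31 for Cpt1b, 2.20 for Fry and 2.05 for Mamld1. Among the named falls it was -4.23 for Myh6, -3.54 for Arhgdib, -2.39 for Fam107a, -2.07 for Lgals9, -2.05 for Nhsl1, -1.72 for Wisp2, -1.68 for Adcy8, -1.64 for Prkar2b, -1.54 for Psmb9, -0.98 for Ppp1r14c and -0.81 for Oxct1. Of the myogenic genes it was -2.35 for Myf5, -1.77 for Myog and -1.67 for Myh3.

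Large changes of this kind with a mean of at least 5 RPKM in a group were seen in genes that differed at day 0. Dynap was at 152 and 202 RPKM in WT and 6.19 and 7.33 RPKM in QKO at day 0, and its difference changed by 3.95. The changes were 3.61 and 3.42 for the prolactin family genes Prl2c2 and Prl2c3, which may share reads, and 3.61 for Hoxb2, all lower in QKO at day 0 and at most 5.38 RPKM in any of the 4 libraries at day 1. In the other direction the changes were -5.13 for Myh7, -4.48 for the chemokine gene Ccl7, -4.43 for the neuropeptide gene Gal and -4.20 for Hoxc10. Ccl7 was at 112 and 95.3 RPKM in QKO and 1.48 and 3.08 RPKM in WT at day 0 and below 1 RPKM in all 4 libraries at day 1. From day 1 to day 2 the difference changed in Aldh1a1 alone, by -1.83. Single outlying libraries within a group of 2 were not tested.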

How the results depend on the processing

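The counts of 170 genes higher, 158 lower, 172 changed 2-fold or more, 1304 with a change from day 0 and 30 between QKO and TKO depended on the processing. None of the 328 genes called between QKO and WT at day 1 reversed in any alternative that tested it. With a mean RPKM of at least 5, 200 of the 328 were tested and 159 kept, with voom 282 and 203, and without a filter 207 were kept. Reversals were not counted for the other comparisons. With a mean RPKM of at least 5 they were 64, 95, 80, 661 and 12. Fits of only the day 1 libraries gave 879, 982, 311 and 118 for the day 1 comparisons, and fits of only the 4 libraries compared 552, 633 and 315. Leaving out each of the 4 libraries in turn gave 18 to 36 higher, 20 to 37 lower, 34 to 58 changed 2-fold or more, 549 to 742 with a change from day 0, and 9 to 12 between QKO and TKO when a QKO library was left out. The lone library of a group is then assumed to vary like the others. Without the second WT library of day 2, chosen after seeing the data, 321 were higher, 317 lower, 262 changed 2-fold or more, 1492 with a change from day 0 and 31 between QKO and TKO. The length trend removed gave 257 lower, limma voom on recovered reads 85 lower, 858 with a change from day 0 and 15 between QKO and TKO, a pseudocount of 0.1 285 changed 2-fold or more and 15 between QKO and TKO, no filter 109 changed 2-fold or more, all rows of repeated symbols 47 between QKO and TKO, and an adjusted p under 0.01 35 higher and 23 lower. The share of calls that were higher was 51.8%, 67.2% with voom and 40.3% with a mean RPKM of at least 5. The cause of these changes was not tested, except that fewer genes or libraries entered some fits.

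Replicate numbers are shared by the groups, and nothing says that a number marks a pair. The deviations of same-numbered QKO and WT libraries at day 1 correlated at 0.244, against -0.385 to 0.55 over 36 pairs of groups. With the replicate number as a block, 182 genes were higher and 152 lower, and 292 of the 328 calls were kept.

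Depth limits the low genes: 1 read on a transcript of 1 kb is 0.0133 to 0.0231 RPKM in these 4 libraries, so that values below about 0.1 RPKM rest on few reads.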

Other observations

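Genes of branched-chain amino acid breakdown, a group chosen after its values were seen, were mostly lower in QKO at day 1. Of 16 tested 5 were called lower, Bcat2, Bckdhb, Mccc2, Pccb and Hibch, none was called higher, 15 had changes below 0, and the median was -0.51. Of all 11890 genes, 1.33% were called lower and 6025 had changes below 0. Bcat2, the mitochondrial aminotransferase that starts the pathway, was at 27.7 and 23.8 RPKM in WT and 15.0 and 13.0 RPKM in QKO (-0.84, adjusted p = 0.0365). Pccb, a subunit of propionyl-CoA carboxylase, was at 39.1 and 37.8 RPKM in WT and 24.5 and 18.6 RPKM in QKO (-0.82, adjusted p = 0.0251), and Mccc2 at 12.6 and 10.9 RPKM against 6.58 and 6.7 RPKM. The partner subunits Pcca, at 5.73 and 4.43 RPKM in WT and 4.05 and 4.13 RPKM in QKO, and Mccc1 were not called. Of related mitochondrial genes, Gcdh, which breaks down lysine and tryptophan products, was at 14.8 and 14.2 RPKM in WT and 4.77 and 4.57 RPKM in QKO (-1.45, adjusted p = 0.0174), and Sucla2, a subunit of succinyl-CoA ligase, at 119 and 120.2 RPKM against 88.9 and 80.1 RPKM.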
